A study of Mus musculus with 2 samples.

Results

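Mir221 and Mir222 are neighbouring microRNA (miRNA) genes of the mouse X chromosome, and they were selected by name as the 2 members among the 2202 miRNA genes counted. Both were present in each table and both were detected, which here means 10 or more reads in each library, as were 337 genes in all. The data are microRNA sequencing of RNA below 30 nucleotides from the adrenal glands of female B6CASTF1/J mice aged 25 days. Both libraries come from this first-generation hybrid, a cross of C57BL/6 with the wild-derived CAST mouse. The labels give 1 group with biological replicates 1 and 2, called library 1 and library 2 here, with 1 animal number each but the same donor identifier. No treatment or other group is given, so the comparisons are between members and between libraries. With 1 library per animal number, differences of animal, dissection and library preparation cannot be told apart.

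As background, miR-221 and miR-222 are made from a common primary transcript, which is cut into hairpins and then into short mature strands. Each hairpin can give a 5p and a 3p strand. The strand loaded into Argonaute finds its target mRNAs mainly through its seed, the bases near its 5′ end, so miRNAs with the same seed share many targets. The pair is known from endothelium, where it represses the stem cell factor receptor Kit, from vascular smooth muscle, and from dividing cells, where it represses the cell cycle inhibitor Cdkn1b (p27). The adrenal gland has a dense capillary bed, a steroid-making cortex and a medulla of chromaffin cells, and a whole-gland library holds RNA of all of these. Fewer cells of a type and less RNA per cell cannot be told apart in it.

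The mature sequences show why the genes are treated as a pair, and how their reads can be separated. RefSeq (GRCm38.p6) lists 3 mouse mature miRNAs with the seed of the pair, given here 5′ to 3′ with the seed, bases 2 to 8, in capitals.
miR-221-3p: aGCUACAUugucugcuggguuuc
miR-222-3p: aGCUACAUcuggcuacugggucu
miR-1928: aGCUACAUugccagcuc
The 3p strands of the pair share their first 8 bases. Over the other 15 bases, only 3 are the same at the same position. No run of 20 bases of either hairpin occurs in another miRNA gene of the tables, on either strand, so reads of one member are not expected at the other. Mir1928, the other gene with this seed, lies on chromosome 1 and had 0 reads in both libraries, where a count of 0 allows up to 3 reads. Other carriers of the seed were searched only among the RefSeq entries, which cover 304 of the 337 detected genes by symbol.

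The hairpins are shown because the tables count reads per hairpin gene, not per mature strand. The 3p strand is in capitals.
Mir221: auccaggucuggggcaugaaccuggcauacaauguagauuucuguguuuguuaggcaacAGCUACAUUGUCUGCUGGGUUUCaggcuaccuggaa
Mir222: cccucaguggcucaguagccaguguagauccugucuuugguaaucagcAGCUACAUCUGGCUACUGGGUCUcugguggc
Mir221 (ENSMUSG00000065422.1) lies at chrX:19146294-19146388 on the minus strand of mm10 and is 95 bases long, with 47.4% G and C. Mir222 (ENSMUSG00000065471.1) lies at chrX:19146893-19146971 on the same strand and is 79 bases long, with 54.4% G and C. GENCODE M21 and RefSeq give the same ends for both. Mir222 comes first in the direction of transcription, and 504 bases separate the hairpins. No other annotated gene overlaps either member, so they are intergenic in GENCODE M21, with no exon, intron or UTR to assign. The nearest gene upstream on their strand is the noncoding transcript gene Gm14636, whose annotated end is 10009 bases before Mir222 in GENCODE M21 and 9499 bases before it in RefSeq. Downstream, the nearest annotated gene is the pseudogene Gm5383, on the other strand and 203065 bases away. How the reads divide between the 5p and 3p strands was not analysed here.

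**Figure D1:**
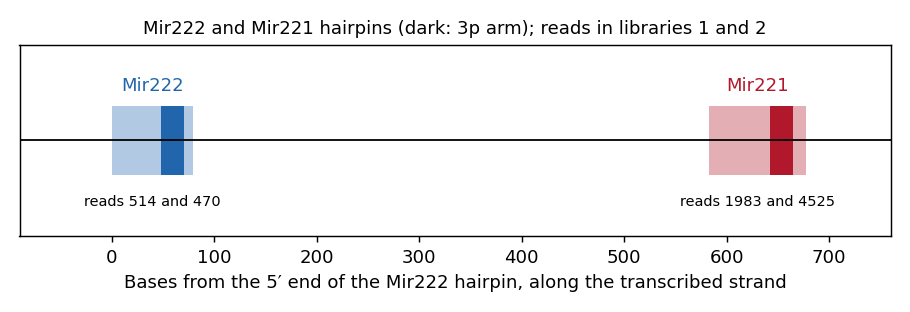
Map of the hairpin genes, in bases from the 5′ end of Mir222 along the transcribed strand, with the hairpins in light and the 3p strands in dark colour. Below each hairpin are its reads in libraries 1 and 2: Mir222 had 514 and 470 reads, and Mir221, which begins after a gap of 504 bases, had 1983 and 4525.

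The libraries held 7938596 and 11132685 reads, of which 2244073 (28.3%) and 3912280 (35.1%) were counted on the strand of a miRNA gene. The latter sums are the base of the normalised read counts (CPM, reads scaled to a sum of 1000000 per library). Reads that mapped to several places made up 28.4% and 27.5% and are in no gene count. The tables hold no protein-coding genes, so markers of steroid-making cells could not be read from them. Of miRNA markers for other cells, 8 striated muscle genes had 10 and 5 reads together. Of these, 5 (Mir1a-1, Mir1a-2, Mir133a-1, Mir133a-2 and Mir133b) had 0 reads in both libraries. Each of them has a run of bases in common with other genes, so its reads can be missing from the gene counts. The low sum therefore does not show that striated muscle RNA was absent. The 6 neuroendocrine genes held 4.22% and 4.34% of the reads, most of them from Mir375 with 37573.6 and 36561.0 CPM. All 6 were called as higher in library 2 by the test described below, beside 29.4% of all genes tested, with a median log2 ratio of 0.79. For Mir375 this log2 ratio was 0.05, and its direction depends on the TMM scaling of that test, since its CPM was lower in library 2. The hepatocyte gene Mir122 had 5184.8 and 491 CPM. Of the 3 erythroid genes, Mir451a (480 and 24242.1 CPM) and Mir144 (152 and 1450.6 CPM) were called as higher in library 2 and Mir486 (47.7 and 22 CPM) as higher in library 1. Mir451a and Mir486 each have a run of 20 bases in common with another gene and so have uncertain counts. Mir486 had only 107 and 86 reads. Over all genes tested, 29.4% were called as higher in library 2 and 29.0% as higher in library 1. Of the 5 leukocyte genes tested, 1 (Mir142, with an uncertain count) was called as higher in library 2. Mir342, Mir150 and Mir223, 3 of the 5, were called as higher in library 1, and Mir155 was not called. The median log2 ratio of this list was -0.48, against -0.07 over all genes tested. The part of neuroendocrine, liver, blood or leukocyte RNA in the results below was not tested.

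Mir221 was the more abundant member in both libraries, and Mir222 was several times lower in each. Mir221 had 1983 reads in library 1, which were 884 CPM (95% Wilson interval 846 to 923). In library 2 it had 4525 reads, which were 1156.6 CPM (1123.4 to 1190.8). Intervals cover counting error only, and PCR copies, which cannot be told from separate molecules without identifiers, can make them too narrow even for that. Its mean was 1020.1 ± 193 CPM (SD, n = 2), which placed it 81st by mean level among the miRNA genes, 89th in library 1 and 71st in library 2. The mean was 6.54 times the median of the detected genes.

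Mir222 had 514 reads in library 1, which were 229 CPM (95% Wilson interval 210 to 250). In library 2 it had 470 reads, fewer than in library 1 although that library was deeper, and these were 120 CPM (110 to 131). Its mean was 175 ± 77.0 CPM (SD, n = 2), 1.12 times the median of the detected genes, and it ranked 165th by mean level, 152nd in library 1 and 176th in library 2. Together the members held 0.111% of the miRNA reads in library 1 and 0.128% in library 2. No read lay on the strand opposite to either gene, and the counts of both were the same with and without regard to strand.

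**Figure D2:**
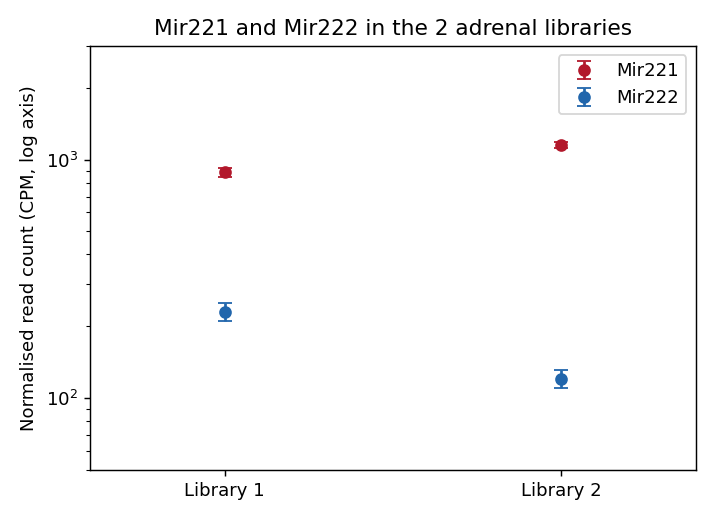
Normalised read count (CPM, log axis) of Mir221 and Mir222 in each library, with 95% Wilson intervals as error bars. Mir221 lies above Mir222 in both libraries, at 884 and 1156.6 CPM against 229 and 120 CPM.

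The genes next to each member in the order of levels were picked by that order, so their closeness to it is a description only. Around Mir221 by mean CPM stood Mir872 (1050.3 ± 15.1), Mir203 (1046.2 ± 401), Mir181c (1001 ± 29.2) and Mir29c (971 ± 204) (SD, n = 2). Around Mir222 stood Mir668 (186 ± 77.9), Mir301 (182 ± 116), Snord43 (172 ± 2.7) and Mir125b-2 (164 ± 39.0) (SD, n = 2). In each case the difference in mean CPM was below the SD of the member itself.

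Likeness was measured as the distance over the log2 CPM of both libraries, a description that rests on 2 libraries. Nearest to Mir221 were Mir532 at 0.09, Mir29c at 0.11 and Mir671 at 0.14. Mir532, also on the X chromosome, had 898 and 1230.0 CPM. Nearest to Mir222 were Mir668 at 0.15, Mir24-2 at 0.28 and Mir125b-2 at 0.32. Of these, Mir29c, Mir24-2 and Mir125b-2 have a run of 20 bases in common with another gene and so have uncertain counts. Mir668, of the imprinted Dlk1-Dio3 locus on chromosome 12, had 242 and 131 CPM. The sets for the members hold no gene in common, which follows from the several-fold distance between their levels.

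The members differed between the libraries in opposite directions. Mir221 was higher in library 2, by 1.39-fold (counting interval 1.32 to 1.46; log2 ratio of library 2 over library 1 0.47). The exact binomial test, scaled by TMM and adjusted by Benjamini and Hochberg over 411 genes, gave an adjusted p of 7.53e-35. Mir222 was higher in library 1, by 1.80-fold (1.58 to 2.04; log2 ratio -0.84), with an adjusted p of 2.73e-19 in the same exact test. This test compares the reads of these libraries, not conditions, and it called 58.4% of the genes tested, 29.4% as higher in library 2 and 29.0% as higher in library 1. Of the genes called, 50.4% were higher in library 2. This share was 42.9% when scaled by the sum of miRNA reads, and 61.7% with no filter on low counts, which shifts every log2 ratio by 0.17. A call for each member is thus what most genes of these libraries show. When the ratio also had to reach 1.5-fold, 31.4% of the genes were called, 15.1% as higher in library 2 and 16.3% as higher in library 1. Mir222 was among the latter, and Mir221 with 1.39-fold was not called.

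The sizes of the differences were common among detected genes. A ratio at least as far from 1 as that of Mir221 was found for 49.6% of them, and as that of Mir222 for 22.3%. Over 337 genes, edgeR put the biological coefficient of variation at 0.382. With that spread in place of counting error alone, edgeR's exact test called neither member, with p = 0.552 for Mir221 and p = 0.297 for Mir222 before adjustment and an adjusted p of 1.0 for both. That test called 5 genes, 1.22% of those tested. The differences of Mir221 and Mir222 were therefore larger than counting error and of a size common among the detected genes. The spread was estimated from the same 2 libraries and so holds the differences under test. For that reason edgeR's exact test cannot decide whether they exceed the variation between animals.

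**Figure D3:**
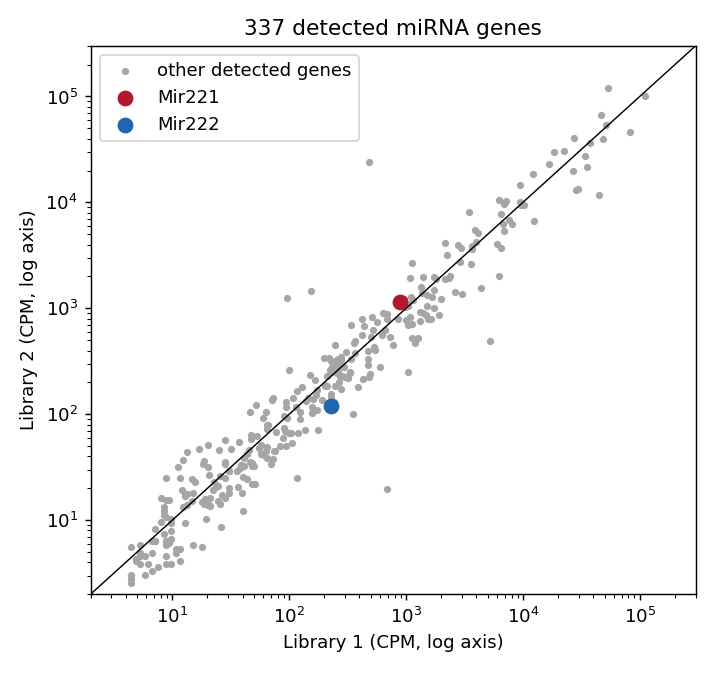
CPM in library 1 against library 2 (log axes) for the 337 detected genes, with the line of equal levels. Mir221 lies a little above the line and Mir222 below it, both within the cloud of the other genes.

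The directions did not depend on how the libraries were scaled. Over 7 ways of scaling and filtering, the log2 ratio of Mir221 lay between 0.39 and 0.64 and that of Mir222 between -0.93 and -0.68. Leaving out Mir126a, Mir451a and Mir144, which had large and uneven counts, gave 0.54 and -0.78.

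**Figure D4:**
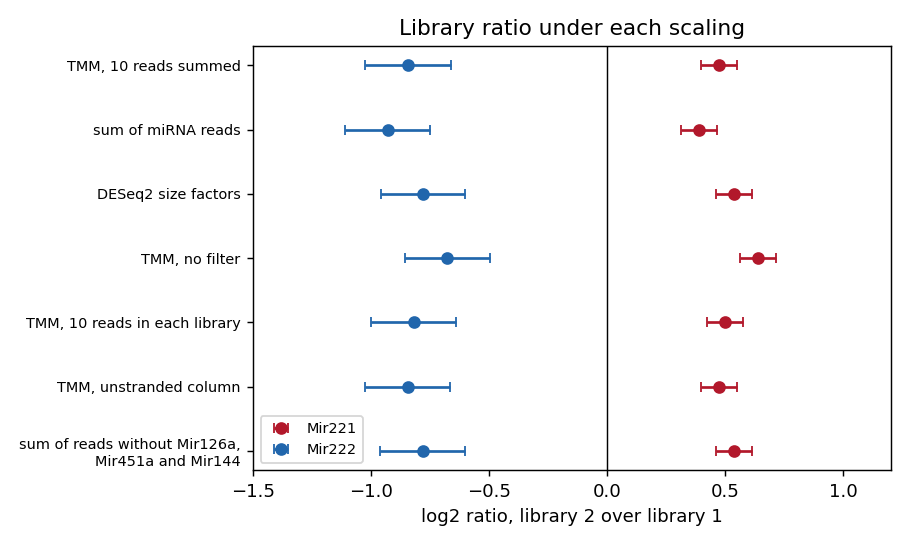
Log2 ratio of library 2 over library 1 for each member under 7 ways of scaling and filtering, with 95% intervals from counting error. All values of Mir221 lie above 0, from 0.39 to 0.64, and all values of Mir222 below 0, from -0.93 to -0.68.

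The ratio of the members within a library needs no scaling between libraries. Mir221 had 3.86 times the reads of Mir222 in library 1 (95% interval 3.50 to 4.25) and 9.63 times in library 2 (8.76 to 10.6). Mir221 thus made up 79.4% of the reads of the pair in library 1 (95% Wilson interval 77.8 to 81.0%) and 90.6% in library 2 (89.7 to 91.4%). The mean log2 ratio of Mir221 over Mir222 was 2.61 ± 0.93 (SD, n = 2). At the split of library 1, the 4995 reads of the pair in library 2 would have been 3967 of Mir221 and 1028 of Mir222, where 4525 and 470 were counted.

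The ratio changed by 2.50-fold between the libraries (counting interval 2.18 to 2.86). Fisher's exact test, two-sided and adjusted over 108 neighbouring pairs, gave an adjusted p of 1.30e-38. With the spread between libraries put into the error of each count, the 95% interval of the log2 difference of 1.32 ran from -0.85 to 3.49 and included 0. As with the single genes, the change in ratio was beyond counting error, and the wider interval rests on a spread estimated from these same libraries.

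Summed, the members differed less than either did alone. The pair had 1112.7 CPM in library 1 and 1276.7 CPM in library 2, a mean of 1194.7 ± 116 CPM (SD, n = 2). With TMM scaling the log2 ratio of the summed reads was 0.28 (counting interval 0.21 to 0.35), and it was 0.20 scaled by the sum of miRNA reads and 0.45 with no filter. The total over both hairpins was thus a little higher in library 2, where it was made up more of Mir221. The sum is over hairpin genes and can hold 5p reads, which have another seed.

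The ratio was then set beside those of other neighbouring miRNA genes, detected and on the same strand with at most 10 kb between them, which can share a primary transcript. There were 108 such pairs over 151 genes, and pairs that share a gene are not independent. The members of a pair differed by a median of 2.06 on the log2 scale, against 2.61 for Mir221 and Mir222, and 40 pairs had a wider ratio. Fisher's exact test called a change in ratio between the libraries in 59.3% of the pairs, so the call for Mir221 and Mir222 is shared with most. Among the 51 pairs with no run of 20 bases recurring in another gene it called 58.8%, and with a change of 1.5-fold or more required it called 42.6% of all pairs. In size their change was in the upper part of the range: the median change was 0.51 on the log2 scale, and 15.7% of the pairs, Mir221 and Mir222 included, changed by 1.32 or more. Both members called in opposite directions, as here, were found in 29.6% of the pairs.

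The pairs closest in mean ratio were Mir27a with Mir24-2, Mir23b with Mir27b, and Mir191 with Mir425. Mir27a had 5.77 and 6.31 times the reads of Mir24-2 in libraries 1 and 2. Mir23b had 5.22 and 7.39 times those of Mir27b, and Mir191 had 7.25 and 4.89 times those of Mir425. Each of these ratios moved less between the libraries than that of Mir221 over Mir222, and each of these pairs has at least 1 gene with uncertain counts.

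Like Mir221 and Mir222, 25 other neighbouring pairs carry a mature seed in common. Their ratios changed by 0.01 to 1.72 on the log2 scale, with a median of 0.44, and 5 changed as much as that of Mir221 and Mir222 or more. Of these 25 pairs, 7 have no such run of 20 bases in common with another gene, and they can be set beside Mir221 and Mir222 without that uncertainty. Mir34c had 30.7 times the reads of Mir34b in library 1 and 30.5 times in library 2, an almost fixed ratio. Mir93 had 2.22 and 2.34 times those of Mir106b, Mir181d had 0.98 and 1.19 times those of Mir181c, and Mir20b had 1.14 and 1.41 times those of Mir106a.

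The ratios of the other 3 moved about as far as that of Mir221 and Mir222. Mir132, a cAMP-responsive miRNA, had 29.4 times the reads of Mir212 in library 1 and 12.3 times in library 2. Mir501 had 2.95 and 1.14 times those of Mir500, also on the X chromosome. Mir200b had 1.82 and 0.60 times those of Mir429, from 22 to 40 reads a gene.

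**Figure D5:**
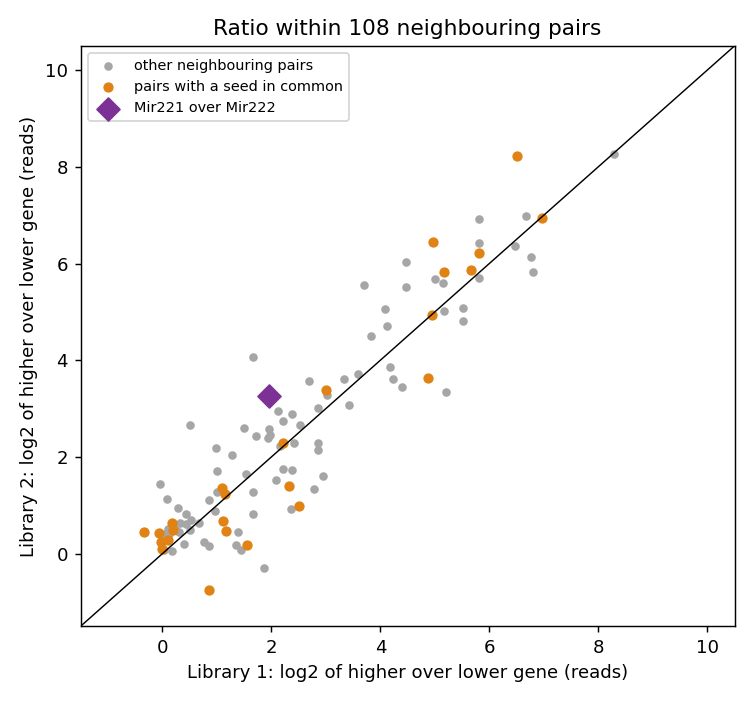
Log2 ratio of reads of the higher over the lower gene in 108 neighbouring pairs, in library 1 against library 2, with the line of equal ratios and the 25 other pairs with a seed in common in orange. Mir221 over Mir222, the diamond, lies above the line at 1.95 and 3.27, with other pairs as far from the line on both sides.

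The values of miRNA genes of the cells in which the pair is known were read beside it, with the members left out of each list. Of the 7 endothelial genes tested, 5 were called as higher in library 2, the other 2 were not called and none was called as higher in library 1, beside 29.4% and 29.0% of all genes tested. Their median log2 ratio was 0.59, against -0.07 over all genes tested. Mir92a-1 was also planned for this list but was left out of its values, because GENCODE M21 names it Mir92-1. Mir92-1 had 1122.5 and 713.65 CPM, with an uncertain count, and was called as higher in library 1. Mir17, Mir18, Mir19a and Mir20a of this list are also on the growth-linked list below. The endothelial genes were led by Mir126a, the endothelial miRNA in Egfl7, with 53762.5 and 121006.9 CPM, and their summed share was 5.82% and 12.8% of the reads. Mir126b, opposite Mir126a, had 7 and 13 reads. Of the 4 smooth muscle and pericyte genes tested, the log2 ratios were 0.66 for Mir143, which was called as higher in library 2, and -0.71 for Mir214, called as higher in library 1. Those of Mir145a (-0.02) and Mir199a-2 (-0.09) were not called. Mir199a-2 had only 16 and 25 reads and has a run of 20 bases in common with other genes, so its count is uncertain. The summed share of the smooth muscle and pericyte list was 2.89% and 4.18%. The part of endothelial or smooth muscle RNA in the levels of Mir221 and Mir222 was not tested.

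Of the wider vascular list, which shares Mir126a, Mir17 and Mir296 with the endothelial list, 24 genes were tested. In it the test put 11 genes higher in library 2 and 9 higher in library 1, and it left 4 uncalled, beside 58.4% of all genes called, 29.4% and 29.0% by direction. The median log2 ratio of the list was 0.15, and 11 of its 25 genes in the tables have uncertain counts. Mir92-1 was planned for this list too and was left out in the same way. Of growth-linked miRNA genes, 9 were tested, of which the test put 5 higher in library 2 and 1 higher in library 1. It left 3 uncalled, and over all genes 29.4% and 29.0% were called in these directions. Mir17 (log2 ratio 0.59) and Mir20a (0.92) of the miR-17-92 cluster were among the former, and Mir21a (-1.05) was the latter. Mir92-1 of the same cluster, planned for this list and left out by its name, was called as higher in library 1. Of 11 genes linked to restraint of growth, 5 were called as higher in library 2 and 5 as higher in library 1, beside the same 29.4% and 29.0%. Mir497, planned for that list as Mir497a and left out by its name, was not called (log2 ratio 0.00). Mir221 with its log2 ratio of 0.47 and Mir222 with -0.84 lie on either side of these lists' medians, which were 0.33 for the growth-linked genes and 0.11 for those of growth restraint.

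On the X chromosome, 33 of the 140 other miRNA genes were detected, and 35 were tested. The test put 12 of these higher in library 2 and 13 higher in library 1, and it left 10 uncalled, beside 29.4% and 29.0% of all genes by direction, with a median log2 ratio of -0.03. The 4 most abundant were Mir322 with 24351.0 ± 8156.9 CPM, Mir652 with 9562.7 ± 129 CPM, Mir98 with 6565.7 ± 359 CPM and Mirlet7f-2 with 5057.5 ± 1411.4 CPM (SD, n = 2). A run of 20 bases of Mirlet7f-2 recurs in other genes, so its count is uncertain. Of the 16 neighbouring pairs on this chromosome, 11 changed in ratio by Fisher's exact test with the adjustment over all pairs, beside 59.3% of all pairs. On the log2 scale 4 of them, Mir221 and Mir222 included, changed by 1.32 or more, beside 15.7% of all pairs.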

How the data were processed

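For each library the authors deposited a table of raw counts of reads by miRNA gene, not normalized, mapped to mm10 per the labels and with GENCODE M21 named in the text deposited beside each table. The aligner, counter and trimming were not stated (not given in the sources used here). Each table holds 3 count columns with no header. The stranded column with the larger sum was used, and its meaning was inferred from the values. Rows without a gene entered neither library sizes nor tests. Unmapped reads were 33.8% and 27.8%, reads outside miRNA genes 9.57% and 9.53%, and ambiguous reads 3.84% and 7.49% of the unstranded column. All 2202 identifiers were found in GENCODE M21, and 304 of the 337 detected genes matched a RefSeq mature entry by symbol. Reads from the CAST chromosomes can be lost in mapping to the reference.

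Genes with 10 or more reads summed were compared by an exact binomial test (two-sided, given the sum of both libraries) with TMM effective library sizes (edgeR 4.0.16, R 4.3.3) and Benjamini-Hochberg adjustment at 0.05. Log2 ratios have 0.5 read added to each count. Pairs were tested with Fisher's exact test (scipy 1.17.1). Intervals are 95%. A quasi-likelihood test needs a contrast, which 1 group does not give. The alternatives used DESeq2 1.42.0 size factors and edgeR's exact test with the common dispersion of an intercept-only fit. The binomial and Fisher tests were run on simulated counts with known changes and counting error only, without further spread between libraries. The p-values of the binomial and Fisher tests cover counting error only and measure no spread between animals. The labels give separate animal numbers but the same donor identifier, so whether the libraries came from separate animals is not settled. Differences between them may be technical.

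The members, lists and tests were chosen with earlier results of these data known. Named genes are the members, the 3 genes nearest to each in level, genes with their seed, neighbouring pairs with a common seed or the nearest ratio, the 4 most abundant X chromosome genes and genes of the lists. Mir375, Mir122, Mir451a and the striated muscle genes are from the marker lists; genes next to the members in rank were added after their values were seen.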

Additional observations from a re-analysis of the deposited data

How the results depend on the processing

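With edgeR's exact test at the common dispersion, the log2 ratio of 0.47 for Mir221 and of -0.84 for Mir222 kept their direction and lost their call (adjusted p of 1.0 for both), and the genes called fell from 240 to 5. With the same dispersion in its standard error, the log2 difference of -1.32 in the ratio of Mir222 over Mir221 had an interval from -3.49 to 0.85 and was no longer called. In each of these cases the alternative adds the spread between the libraries, estimated from these same libraries, to the error. The other 24 alternative values of these ratios and counts kept their direction and call, or stayed within 1.5 times of the count. Leaving out either library, the level was 884 to 1156.6 CPM for Mir221 and 120 to 229 CPM for Mir222. With the unstranded column, whose sum of reads is smaller, the mean of Mir221 was 1246.0 CPM, and with CPM over all reads of the tables the means were 328 for Mir221 and 53.5 for Mir222. No paired analysis was possible because all samples belong to 1 group. With 2 libraries, the spread of a single gene rests on 1 degree of freedom, and depth limits Mir222, with 470 to 514 reads, more than Mir221.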
